A study of Rattus norvegicus with 10 samples.

Results

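Genes of fatty acid oxidation and targets of the peroxisome proliferator-activated receptors (PPARs) were examined in rat pancreatic islets, the clusters of hormone-secreting cells that hold the insulin-producing β-cells. The 37 genes were taken from a list by name and set out by role: uptake, activation and carnitine-dependent import (10 genes), mitochondrial β-oxidation (12), electron transfer (3), peroxisomal steps (4), PPARs and their coactivator (4), and fatty acid-responsive PPAR targets (4). Each was represented by the probeset with that symbol alone and the highest mean signal. Of these, 36 were found among the 14217 genes named on the array, and 32 passed a filter on low signals. The probeset of Acaa1a, the peroxisomal thiolase, is annotated jointly with Acaa1b and was not used. The filtered-out genes were Ppara, Pparg, Acox3 and Ehhadh.

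The islets came from male Wistar rats of 7 weeks, weighing 225 to 250 g, kept singly and given one of 2 diets for 10 days. The cafeteria group (5 arrays) drew 66% of its calories from fat, and the standard group (5 arrays) ate chow with 8% of calories from fat. After collagenase digestion and a density gradient the islets were selected manually, and each array carried the RNA of an independent sample. Groups follow the array titles. The source names and descriptions say the same (3 fields in all), while the diet characteristic (1 field) names the opposite diet on all 10 arrays. If that field were right, each sign below would turn and each size would stay. No measured value was used to settle this. All 7 measured β-cell markers passed the filter, with a summed signal of 104671 to 148397 on cafeteria and 100000.5 to 118797 on standard arrays. By log2 difference 5 were higher in cafeteria islets and 2 lower, Pdx1 (−0.21) and Nkx6-1 (−0.15). Of 3 α-cell markers Gcg (0.23) and Irx2 (0.075) were higher and Ttr (−0.21) lower. Of 3 markers of δ-cells and pancreatic polypeptide cells, Sst (0.21) and Ppy (0.20) were higher and Hhex (−0.044) lower.

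Long-chain fatty acids enter cells partly through the membrane protein CD36 and are joined to coenzyme A by acyl-CoA synthetases. Carnitine palmitoyltransferase 1, the step that malonyl-CoA inhibits, hands the acyl group to carnitine for transport into mitochondria, where rounds of dehydrogenation, hydration, oxidation and thiolysis shorten it. Fatty acids are also ligands of PPARs, nuclear receptors that pair with retinoid X receptors and raise transcription of many of these same genes. In β-cells, fatty acids acutely support insulin secretion, and prolonged exposure is known to impair it.

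The promoters of 4 genes are shown first, since the results return to them: the 3 genes of the list with an unadjusted p under 0.05, and the start region that the genes of the mitochondrial trifunctional protein share. Each window holds 300 bases, 250 before and 50 after a transcript start in RefSeq's table (build GRCr8). Capitals mark the core motif of PPAR sites, AGGTCA, or its reverse complement TGACCT. The positions are chr1:264294601-264294900 (plus strand) for Acsl5, chr10:55236656-55236955 (minus strand) for Acadvl, chr10:38536023-38536322 (minus strand) for Slc22a5 and chr6:31907451-31907750 (minus strand) for Hadhb.
Acsl5: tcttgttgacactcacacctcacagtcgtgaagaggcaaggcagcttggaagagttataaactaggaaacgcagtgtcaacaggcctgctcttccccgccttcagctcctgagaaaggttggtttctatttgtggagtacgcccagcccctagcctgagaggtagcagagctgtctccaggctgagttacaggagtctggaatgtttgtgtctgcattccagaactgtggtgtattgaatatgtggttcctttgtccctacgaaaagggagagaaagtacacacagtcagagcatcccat
Acadvl: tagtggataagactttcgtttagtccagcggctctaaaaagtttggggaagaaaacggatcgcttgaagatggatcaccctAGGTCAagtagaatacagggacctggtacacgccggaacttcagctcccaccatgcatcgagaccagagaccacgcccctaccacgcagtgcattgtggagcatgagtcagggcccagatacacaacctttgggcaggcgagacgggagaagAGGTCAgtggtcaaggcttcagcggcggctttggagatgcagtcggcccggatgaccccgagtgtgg
Slc22a5: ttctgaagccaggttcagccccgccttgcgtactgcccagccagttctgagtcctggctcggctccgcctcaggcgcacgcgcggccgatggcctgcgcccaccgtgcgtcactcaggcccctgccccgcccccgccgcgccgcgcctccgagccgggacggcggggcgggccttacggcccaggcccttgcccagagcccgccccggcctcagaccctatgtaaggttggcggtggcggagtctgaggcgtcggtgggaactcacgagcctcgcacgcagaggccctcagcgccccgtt
Hadhb: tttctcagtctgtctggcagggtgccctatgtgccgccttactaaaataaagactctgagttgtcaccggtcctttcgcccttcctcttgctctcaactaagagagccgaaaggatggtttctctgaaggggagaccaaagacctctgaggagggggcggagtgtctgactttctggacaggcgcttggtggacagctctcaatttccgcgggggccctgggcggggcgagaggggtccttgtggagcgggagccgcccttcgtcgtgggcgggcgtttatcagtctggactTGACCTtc
The window of Acadvl holds 2 core motifs, that of Hadhb holds 1 on the opposite strand, and those of Acsl5 and Slc22a5 hold 0. Among the 32 listed genes with a window in the table, 5 had a core motif on either strand (Acadvl, Echs1, Eci1, Eci2 and Hadhb), while 16.2% of all 33469 windows had one. The full direct repeat to which PPAR and its partner bind is AGGTCA, any base, then AGGTCA again, so it contains the core motif at each end. Searched on both strands as an exact match, it was in 0 of these genes' windows and in 0.0538% of all windows. Near matches were not counted in any window. The Acadvl window holds AGGTCAgtggtca, which departs from the full repeat in 1 letter. How many of all windows, or of the other listed genes' windows, hold such a near match is therefore not known. A match is only a match of letters. Known PPAR sites often lie outside such windows, so a window without one says nothing about the receptor.

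No gene of the list passed the threshold for a difference between diets. With limma, 0 of 32 had an adjusted p under 0.05 (lowest 0.398), as was the case for 0% of the 10301 genes and of the 18625 probesets tested. At an unadjusted p under 0.05, there were 3 of 32 genes, or 9.38%, against 10.3% of all genes and 10.4% of all probesets, so the share was near the background. Of the 3, Acsl5 and Acadvl were higher in the cafeteria group (2 of 32, against 5.03% of all genes) and Slc22a5 was lower (1 of 32, against 5.25%). The median log2 difference over the 32 genes was 0.0057, beside −0.0045 over all genes tested, with 19 genes higher and 13 lower.

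**Figure D1:**
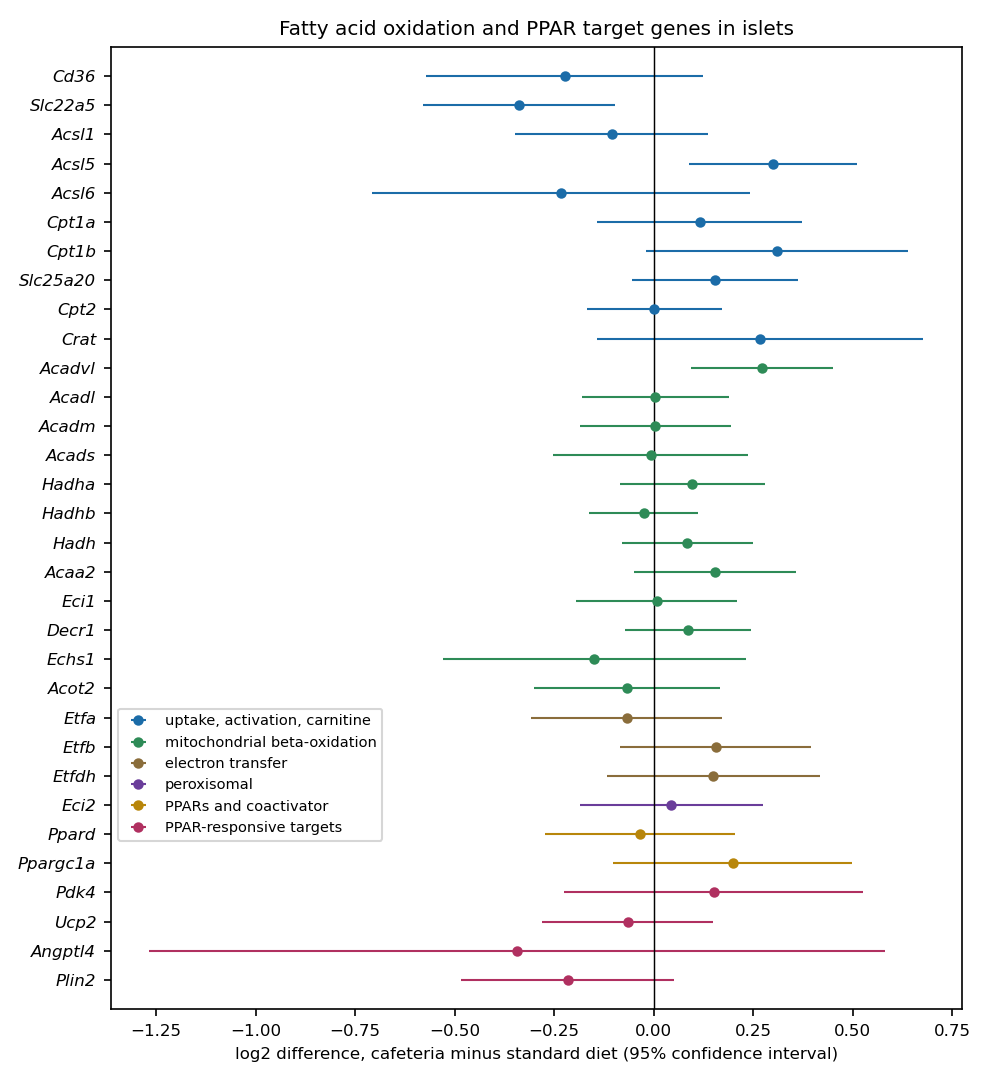
Log2 difference between cafeteria and standard diet (horizontal axis) for the 32 genes tested, in the order of their roles, with 95% confidence intervals from limma (5 arrays per group). The intervals of Acsl5 and Acadvl lie above 0 and that of Slc22a5 below, and the remaining 29 hold 0; Angptl4 has the widest.

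How large a change could have gone unseen differs between genes. For 23 of the 32 genes both ends of the 95% interval lay within 0.5 of 0 on the log2 scale. To either side of the estimate the interval extended by a median of 0.24, by as little as 0.14 for Hadhb and by as much as 0.92 for Angptl4. An adjusted p above the threshold does not show that a gene was equal in both diets.

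Among the genes of uptake, activation and import, 6 were higher and 4 lower in the cafeteria group, with a median log2 difference of 0.059. Acsl5 encodes an acyl-CoA synthetase, which activates fatty acids. Its signal was 1666, 1724, 1805, 1654 and 2283 on the cafeteria arrays, against 1477, 1488, 1448, 1542 and 1397 on the standard arrays. All cafeteria arrays lay above all standard arrays; 1 of 32 genes was separated in that direction, against 1.06% of all genes, and 0 were separated downwards, against 1.72%. The mean was 1826 ± 262 in the cafeteria and 1470.5 ± 53.4 in the standard group (SD, n = 5 each), a log2 difference of 0.30 (SE 0.096, limma unadjusted p = 0.00958, adjusted p = 0.412). The second probeset of Acsl5 read 0.28 (SE 0.202, limma unadjusted p = 0.192). Cafeteria replicate 5 was far above the other 4, and without it the difference was 0.22 (limma unadjusted p = 0.00954).

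The list holds 2 more synthetases, Acsl1 and Acsl6. Acsl1, which in many tissues is the main PPAR-regulated synthetase, had signals of 763 to 995 (median 957) on cafeteria arrays and 819 to 1176 (median 1026) on standard arrays, a log2 difference of −0.11 (SE 0.110). Acsl6, known for its expression in brain, had 165 to 399 (median 334) on cafeteria arrays against 261 to 436 (median 368) on standard arrays (−0.23, SE 0.216). Both estimates leaned on single arrays: Acsl6 was at −0.026 without cafeteria replicate 3, and Acsl1 at −0.038 without cafeteria replicate 5 and −0.047 without standard replicate 3. In both genes the groups overlapped over most of their range.

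Slc22a5 encodes the plasma membrane carnitine transporter OCTN2. It read 659, 607, 540.1, 691 and 542 in cafeteria islets, against 795, 717, 738, 946 and 675 in standard islets. The groups met only where cafeteria replicate 4 exceeded standard replicate 5. It averaged 608 ± 68.0 in cafeteria and 774 ± 105 in standard islets (SD, n = 5 each), a log2 difference of −0.34 (SE 0.110, limma unadjusted p = 0.0103, adjusted p = 0.412), a 1.26-fold lower level. With the RNA quality ratio described below as a covariate, its limma unadjusted p was 0.0708. Its difference stayed between −0.39 and −0.26 over all 22 other settings, that one included.

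Differences in the carnitine shuttle itself were small beside their errors. Cpt1a encodes the liver-type carnitine palmitoyltransferase 1 and had signals of 754, 867, 1009, 928 and 849 in cafeteria islets, against 739.7, 657, 909.6, 819 and 955 in standard islets. The 2 sets overlapped almost wholly, and the log2 difference was 0.12 (SE 0.117, adjusted p = 0.732). Without standard replicate 2, the lowest array, it was 0.042. Its second probeset gave 0.25 (SE 0.152). Slc25a20, the carnitine-acylcarnitine translocase, differed by 0.15 (SE 0.094), and Cpt2, the inner-membrane transferase, by 0.0018 (SE 0.077), with means of 1275 ± 53.9 on cafeteria and 1276 ± 94.1 on standard arrays (SD, n = 5 each).

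Cpt1b, the muscle-type isoform, turned on 1 array. It read 271, 222, 234, 248 and 145 on cafeteria arrays, against 184, 168, 203, 149 and 172 on standard arrays. The first 4 cafeteria replicates exceeded every standard array and replicate 5 lay below them all. The log2 difference was 0.31 (SE 0.150, limma unadjusted p = 0.0621, adjusted p = 0.487). Leaving out cafeteria replicate 5 gave 0.45 (limma unadjusted p = 0.00108, adjusted p = 0.441). Crat, the mitochondrial carnitine acetyltransferase, differed by 0.27 (SE 0.187), with high readings of 574 and 496 in cafeteria replicates 1 and 5 and of 542 in standard replicate 3. Without cafeteria replicate 1 it was 0.16 and without standard replicate 3 it was 0.42.

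For Cd36, the fatty acid transporter, the signals were 501, 428, 488, 504 and 268 on cafeteria arrays, against 487, 557, 523, 462 and 480.1 on standard arrays. Replicate 5 alone stood low. The log2 difference was −0.22 (SE 0.158, adjusted p = 0.62), and −0.062 without that array. Endothelial cells, adipocytes and macrophages express Cd36 too. Markers of endothelium were present (8 of 8 above the filter), with a summed signal of 12242 to 15251 on cafeteria and 12912 to 15453 on standard arrays. Of 9 adipocyte markers, 7 were below the filter, Adipoq, Lep and Plin1 among them. The summed signal was 2042 to 2864 on cafeteria and 2612 to 2962 on standard arrays, most of it from the other 2, Fabp4 and Lpl. Fabp4 read 677 to 1068 on cafeteria and 893 to 1232 on standard arrays. Lpl read 685 to 1747 on cafeteria and 1231 to 1651 on standard arrays. In bulk RNA, fewer cells of a type and less RNA per cell cannot be told apart, and the part of these cells in the Cd36 values was not tested.

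**Figure D2:**
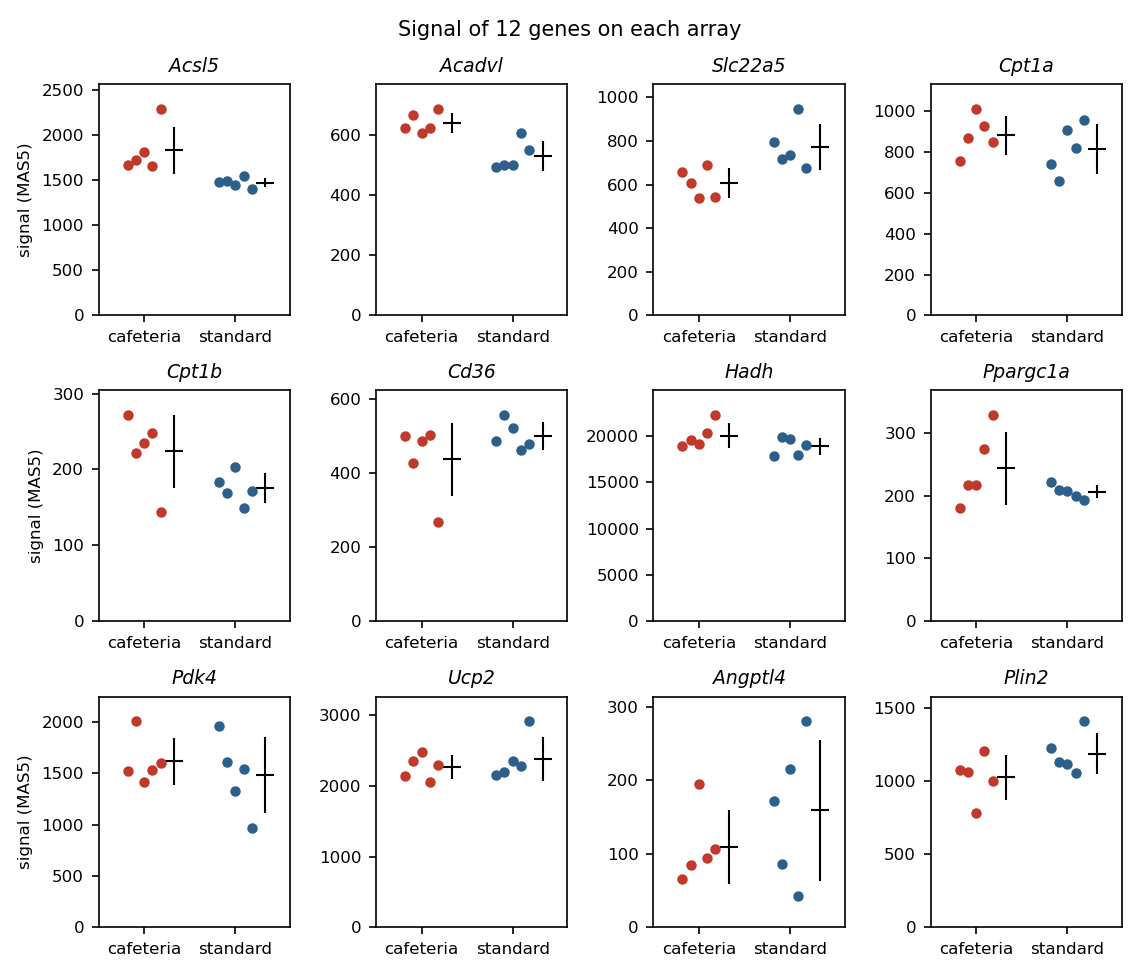
Signal (vertical axis, linear MAS5 units, starting at 0) of 12 genes on each array, with cafeteria arrays left in red and standard arrays right in blue; black bars give the mean and SD (n = 5). Points stand in replicate order. Acsl5 is fully separated between diets, Acadvl and Slc22a5 nearly so, and Cpt1b and Cd36 have 1 low cafeteria array.

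Within mitochondrial β-oxidation 8 of 12 genes were higher and 4 lower in cafeteria islets, with a median log2 difference of 0.0057 and a range from −0.15 to 0.27. The first step of each round is done by acyl-CoA dehydrogenases that differ in preferred chain length. Acadvl, the very-long-chain enzyme, gave 624, 667, 607, 625 and 686 on cafeteria arrays and 494, 500.1, 502, 608 and 549 on standard arrays. Only standard replicate 4 reached into the cafeteria range, at 608 beside 607 in cafeteria replicate 3. The mean was 642 ± 33.2 in cafeteria and 531 ± 48.8 in standard islets (SD, n = 5 each), a log2 difference of 0.27 (SE 0.081, limma unadjusted p = 0.00652, adjusted p = 0.398). Over all 22 other settings its difference stayed between 0.23 and 0.32, each with an unadjusted p under 0.05 and none with an adjusted p under 0.05.

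The dehydrogenases for shorter chains had estimates close to 0. Acadl (long-chain) differed by 0.0042 (SE 0.084), Acadm (medium-chain) by 0.0036 (SE 0.086) and Acads (short-chain) by −0.0080 (SE 0.112). Acadm averaged 1191 ± 90.1 in cafeteria and 1189 ± 99.3 in standard islets (SD, n = 5 each). The 95% intervals reached from −0.18 to 0.19 for Acadl and from −0.19 to 0.19 for Acadm. Whether Acadvl differed more than these 3 genes was not tested.

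Hadha and Hadhb encode the subunits of the trifunctional protein, which carries out the remaining steps for long chains. They lie head to head on chromosome 6, with 243 bases between their annotated ends in GRCr8, in the region whose Hadhb-side window is printed above. Hadhb had the smallest within-group spread of the 32 genes on the log2 scale: 4362 to 4636 (median 4528) on cafeteria arrays and 4461 to 4711 (median 4622) on standard arrays, a log2 difference of −0.026 (SE 0.063). Hadha had 2037 to 2597 (median 2323) on cafeteria and 2004 to 2306 (median 2186) on standard arrays, a log2 difference of 0.097 (SE 0.083). Neither passed, and one of the lesser Hadha probesets read 0.24 (SE 0.115, limma unadjusted p = 0.0566).

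Hadh, the short-chain 3-hydroxyacyl-CoA dehydrogenase, is known for its abundance in β-cells, and its loss in humans causes excess insulin secretion. Its signals were 18904, 19598, 19080.0, 20287 and 22218 on cafeteria arrays, against 17828, 19835, 19670.5, 17984 and 18997 on standard arrays. The highest value was again cafeteria replicate 5, and the groups overlapped. The log2 difference was 0.085 (SE 0.075, adjusted p = 0.694) and turned to −0.024 with quantile normalization. Its mean lay at percentile 99.8 of all probesets, where saturation can compress differences; the highest signal on any array ran from 40318 to 49016 on cafeteria and from 36433 to 42382 on standard arrays.

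The other matrix enzymes showed small differences. Acaa2, the thiolase, differed by 0.15 (SE 0.093) and Decr1, the reductase for unsaturated chains, by 0.086 (SE 0.072). Eci1, the isomerase for unsaturated chains, was at 0.0071 (SE 0.092) and Echs1, the short-chain hydratase, at −0.15 (SE 0.173). Echs1 was uneven among cafeteria arrays, at 489 and 579 in replicates 1 and 5 against 793 to 862 in the other 3, and without replicate 1 its difference was −0.025. Acot2, a mitochondrial acyl-CoA thioesterase and PPAR target, differed by −0.067 (SE 0.107). It belongs to a cluster of closely related genes, so its probesets may also detect its neighbours.

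Electrons from the dehydrogenases pass through electron transfer flavoprotein and its dehydrogenase to ubiquinone. Etfb (0.16, SE 0.109) and Etfdh (0.15, SE 0.122) were higher in cafeteria islets and Etfa (−0.068, SE 0.110) lower, none past the threshold. Cafeteria replicate 5 was the highest cafeteria array for Etfb (3772, others 2758 to 3184) and the lowest for Etfa (1278, others 1612 to 1783), although both encode parts of one dimer. Without it, Etfb was at 0.088 and Etfa at 0.0062.

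Of the peroxisomal genes only Eci2, an enoyl-CoA isomerase found in peroxisomes and mitochondria, passed the filter. It had 452 to 625 (median 513) on cafeteria arrays and 471 to 601 (median 497) on standard arrays, a log2 difference of 0.044 (SE 0.104). Acox3, an acyl-CoA oxidase, averaged 100.1 ± 20.4 on cafeteria and 71.3 ± 19.8 on standard arrays, and Ehhadh, the bifunctional enzyme that is a classical PPARα target in liver, 83.5 ± 23.7 on cafeteria and 80.0 ± 20.7 on standard arrays (SD, n = 5 each). These readings sat at percentiles 37.1 and 36.4, just under the filter at the 40th, and were not tested.

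The receptors themselves gave little signal. Ppara, the PPAR of fatty acid oxidation in liver, read 8.99, 2.93, 7.32, 16.4 and 4.16 on cafeteria arrays, against 4.51, 3.31, 2.92, 4.31 and 9.66 on standard arrays. Pparg, the adipocyte PPAR, read 10.6, 6.97, 25.6, 53.9 and 10.6 on cafeteria arrays, against 42.2, 34.4, 10.7, 15.97 and 15.4 on standard arrays. Their means fell at percentiles 1.52 and 11.1 of all probesets, and no detection call says whether these signals exceed background. Each gene had 1 probeset, so a dim reading may also reflect that probeset.

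Ppard, the widely expressed PPAR, passed the filter and read 287, 290.2, 238, 245 and 202 on cafeteria arrays and 238, 234, 256, 294 and 266 on standard arrays. Those sets overlapped throughout, with a log2 difference of −0.035 (SE 0.109, adjusted p = 0.92). Ppargc1a encodes PGC-1α, a coactivator of PPARs and of mitochondrial gene expression. It read 181, 217, 218, 274 and 328 in cafeteria islets, against 221, 209, 206, 199.8 and 194 in standard islets. The standard arrays lay close together, the cafeteria arrays on both sides of them, and the log2 difference was 0.20 (SE 0.136, adjusted p = 0.607). It was 0.089 without cafeteria replicate 5 and 0.29 without cafeteria replicate 1 (limma unadjusted p = 0.0397). A second Ppargc1a probeset gave 0.56 (SE 0.302, limma unadjusted p = 0.0885). The remaining one was below the filter and not tested, and gave −0.39.

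The 4 fatty acid-responsive targets were not all on one side: 1 was higher and 3 lower in cafeteria islets, with a median log2 difference of −0.14. Pdk4 encodes the kinase that turns off pyruvate dehydrogenase when fatty acids are plentiful. It gave 1527, 2007, 1414, 1533 and 1602 on cafeteria arrays, against 1964, 1614, 1326, 1546 and 968 on standard arrays. The cafeteria arrays fell within the wide standard range except for replicate 2, and the log2 difference was 0.15 (SE 0.171, adjusted p = 0.765). It was 0.0076 without standard replicate 5, the lowest array, 0.070 without cafeteria replicate 2 and 0.26 without standard replicate 1. The second Pdk4 probeset read 0.33 (SE 0.232).

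Ucp2 encodes a mitochondrial inner-membrane carrier that in mice limits insulin secretion. Its signals were 2143, 2344, 2473, 2051 and 2292 in cafeteria islets, against 2155, 2189.9, 2349, 2278 and 2911 in standard islets. Standard replicate 5 stood above the rest. The log2 difference was −0.066 (SE 0.098, adjusted p = 0.829) and 0.0091 without that array.

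Angptl4, a secreted inhibitor of lipoprotein lipase and a strong PPAR target in other tissues, varied most among the 32 genes. It read 66.2, 84.8, 195, 94.0 and 106 on cafeteria arrays and 172, 86.3, 215, 42.1 and 280.1 on standard arrays. Both groups spread over several-fold and overlapped. The within-group SD was 0.78 on the log2 scale, against a median of 0.17 over the 32 genes and of 0.17 over all genes tested. The log2 difference was −0.34 (SE 0.420, adjusted p = 0.783), with an interval from −1.27 to 0.58. Leaving out one array at a time gave −0.69 (without standard replicate 4) to −0.094 (without standard replicate 5).

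Plin2 encodes the protein that coats lipid droplets and is commonly used as a marker of fat loading. Its brightest probeset read 1076, 1062, 783, 1210.2 and 998 on cafeteria arrays, against 1229, 1133, 1115, 1055 and 1411 on standard arrays. The groups overlapped, with cafeteria replicate 3 the lowest and standard replicate 5 the highest array, and with a log2 difference of −0.22 (SE 0.122, limma unadjusted p = 0.103, adjusted p = 0.534). Without cafeteria replicate 3 it was −0.12. The second probeset gave −0.39 (SE 0.118, limma unadjusted p = 0.00713, adjusted p = 0.398). It was the only other probeset of a listed gene with an unadjusted p under 0.05.

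**Figure D3:**
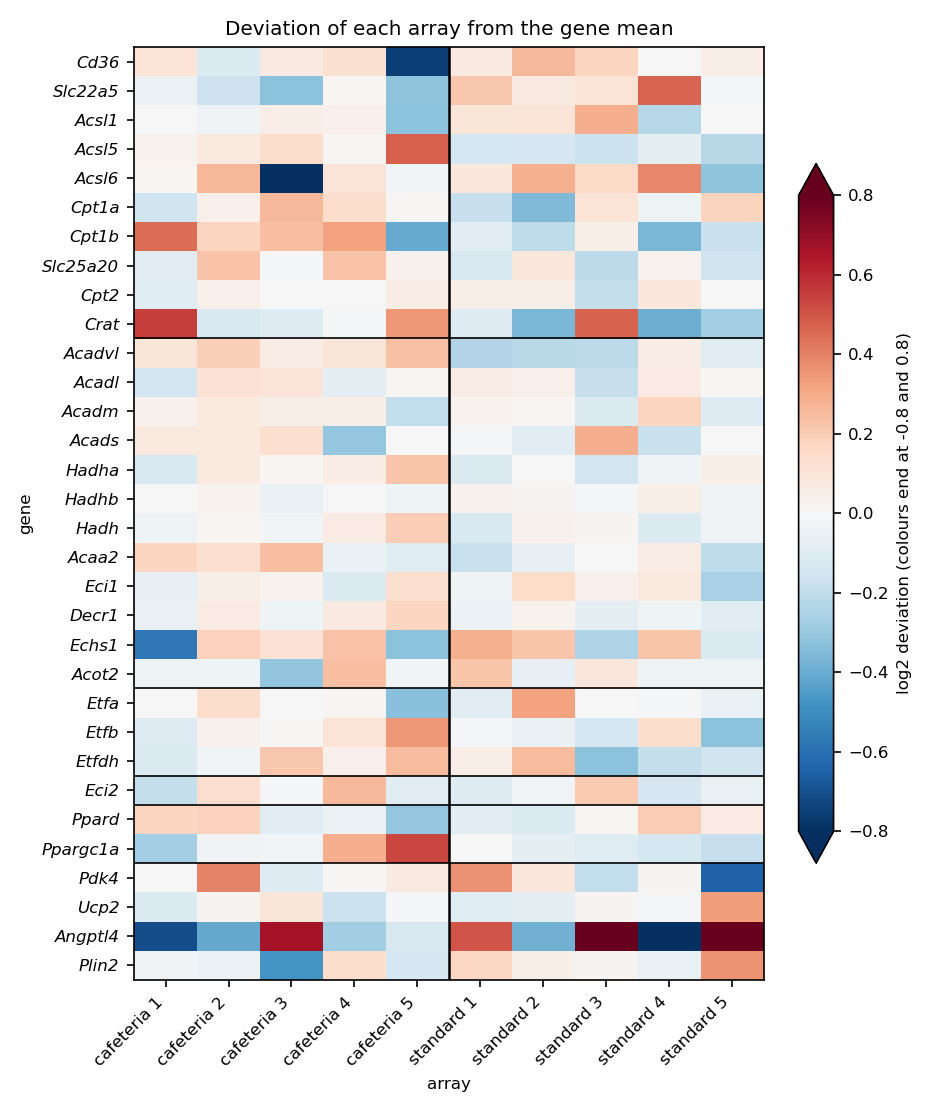
Log2 deviation of each array (columns, cafeteria left and standard right of the black line) from the mean of all 10 arrays, for the 32 genes tested (rows, in the order of their roles, with lines between role groups); red is above and blue below that mean. Angptl4 has the largest deviations among the standard arrays and Acsl6 in replicate 3 the largest among the cafeteria arrays, and cafeteria replicate 5 is low for Cd36, Cpt1b and Acsl1 and high for Acsl5 and Ppargc1a.

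Across animals the fatty acid-responsive genes showed no common level that held up. Over the 10 arrays, 0 of the 15 pairs among Cpt1a, Acadvl, Pdk4, Ucp2, Angptl4 and Plin2 had a permutation p under 0.05 after Benjamini-Hochberg adjustment. Ucp2 and Angptl4 correlated with Pearson's r = 0.62 (permutation p = 0.0469, adjusted 0.352) and Spearman's rho = 0.60 (permutation p = 0.0747, adjusted 0.302). Without the 2 arrays with the most extreme Ucp2 signal, r was 0.39. For Pdk4 and Ucp2 the coefficients were r = −0.72 (permutation p = 0.0323, adjusted 0.352) and rho = −0.43 (permutation p = 0.22, adjusted 0.464), and r was −0.51 without the 2 arrays most extreme for Pdk4. After subtraction of the group means, with both diets pooled, the 2 coefficients were 0.60 and −0.70. Standard replicate 5, which held the highest Ucp2 and Angptl4 and the lowest Pdk4 signals of all 10 arrays, contributes to both. On the standard arrays the Pdk4 and Ucp2 signals ran in opposite order, and on the cafeteria arrays they did not. With 5 arrays a group, neither the Ucp2 and Angptl4 nor the Pdk4 and Ucp2 relation was tested within a diet.

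Other genes of the same pathways came from a list of 90 chosen by function, of which 82 were measured and 60 passed the filter. None passed adjustment (lowest adjusted p 0.398), 25 were higher and 35 lower in cafeteria islets, and the median log2 difference was −0.044. At an unadjusted p under 0.05 stood 9 of 60, or 15%, against 10.3% of all genes: 3 higher (5.03% of all genes) and 6 lower (5.25%). That split changed with the settings, to 0 higher and 5 lower with the filter at the 60th percentile and to 3 higher and 3 lower without standard replicate 1. Of all genes, 12.7% and 8.15% had an unadjusted p under 0.05 in these 2 fits.

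The lowest p among them was that of Fabp5, a fatty acid-binding protein that delivers ligands to PPARδ. It read 405, 427, 347, 395 and 369 on cafeteria arrays, against 471, 495, 596, 512 and 659.7 on standard arrays. The groups did not overlap, and the log2 difference was −0.47 (SE 0.105, limma unadjusted p = 0.00091, adjusted p = 0.398). Macrophages also express Fabp5. Of 12 macrophage markers 9 were lower, with a median log2 difference of −0.073, while 5285 of all 10301 genes tested were lower. Cd163, Itgam and Adgre1 were below the filter, and Cd163 and Itgam were among the 3 higher. The summed signals of all 12 were 3113 to 12286 on cafeteria and 3072 to 8313 on standard arrays. Lyz2 alone read 1377 to 8746 on cafeteria and 1240 to 5363 on standard arrays. Of 11 lymphocyte markers 10 were lower (median log2 difference −0.55), with sums of 665 to 2198 on cafeteria and 723 to 3189 on standard arrays. Only 5 of the 11 passed the filter, and Cd4, the 1 that was higher, did not. The part of macrophages and lymphocytes in the Fabp5 difference was not tested.

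Among transcriptional regulators 3 genes had an unadjusted p under 0.05, and none passed adjustment. Esrra, the estrogen-related receptor that works with PGC-1α on oxidative genes, read 169, 224, 159.9, 161 and 197 on cafeteria arrays, against 87.3, 109.6, 69.5, 131 and 195 on standard arrays. Only standard replicate 5 reached the cafeteria range, and the log2 difference was 0.63 (SE 0.215, limma unadjusted p = 0.0137, adjusted p = 0.412). With the GAPDH ratio described below as a covariate, its limma unadjusted p was 0.17, and that of the next gene, Nrip1, was 0.101. Over the alternative settings, that one included, the difference of Esrra stayed between 0.39 and 0.81 and that of Nrip1 between −0.48 and −0.33. Nrip1 encodes RIP140, a corepressor of oxidative genes. It read 372, 411, 378, 414 and 286 on cafeteria arrays, against 549.7, 431, 643, 485 and 421 on standard arrays, with no overlap (log2 difference −0.42, SE 0.136, limma unadjusted p = 0.0100, adjusted p = 0.412). Rxrg, a retinoid X receptor, had 114 to 159.6 on cafeteria and 74.0 to 165 on standard arrays, a log2 difference of 0.42 (SE 0.180, limma unadjusted p = 0.0399). Of other coregulators in the list, Med1 was at 0.0037 (SE 0.071), Ppargc1b at −0.024 (SE 0.210), Pprc1 at 0.096 (SE 0.118) and Ncor1 at −0.13 (SE 0.097). The partner Rxra was dim, at 5.40 to 97.5 on cafeteria and 12.2 to 83.0 on standard arrays, and was not tested.

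The remaining genes below that p were enzymes and peroxisomal proteins. Sirt3, the main mitochondrial deacetylase, had 401 to 529 on cafeteria and 455 to 607 on standard arrays (log2 difference −0.30, SE 0.107). Bdh1, which interconverts ketone bodies, had 173 to 254 on cafeteria and 125 to 191 on standard arrays (0.31, SE 0.129). Averaged over its 2 probesets, of which 1 passed the filter, Bdh1 differed by 0.14 (limma unadjusted p = 0.346). G0s2, an inhibitor of the lipase ATGL, had 120.0 to 154 on cafeteria and 139 to 215 on standard arrays (−0.26, SE 0.115). These 3 genes overlapped between diets. Pex7, a peroxisomal import receptor, had 807 to 894 on cafeteria and 897 to 1098 on standard arrays (−0.18, SE 0.077). Hsd17b4, the D-bifunctional protein of peroxisomal oxidation, had 1011 to 1203 on cafeteria and 1143 to 1415 on standard arrays (−0.19, SE 0.085). With the GAPDH ratio in the fit, Sirt3, Pex7 and Hsd17b4 had limma unadjusted p-values of 0.0932, 0.0657 and 0.0995. The differences of Pex7 and Hsd17b4 did not shrink in that fit, at −0.23 each. Fabp5, Bdh1, Rxrg and G0s2 stayed under 0.05 there. Over the alternative settings that tested each gene, Fabp5 was under 0.05 in 22 of 22 and Sirt3 in 21 of 22. The counts were 13 of 22 for Pex7, 11 of 22 for Hsd17b4 and 13 of 21 for Bdh1. They were 10 of 21 for G0s2 and 7 of 20 for Rxrg. With Fabp5, Nrip1 and Pex7, 3 of 60 genes were lower without overlap between groups, against 1.72% of all genes. Txnip, a glucose-responsive gene that restrains thioredoxin, had 2325 to 3362 (median 3109) on cafeteria arrays and 2779 to 3810.2 (median 3233) on standard arrays (−0.12, SE 0.118). Fabp1, the liver fatty acid-binding protein, was below the filter, at 3.35 to 38.1 on cafeteria and 2.86 to 34.9 on standard arrays.

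**Figure D4:**
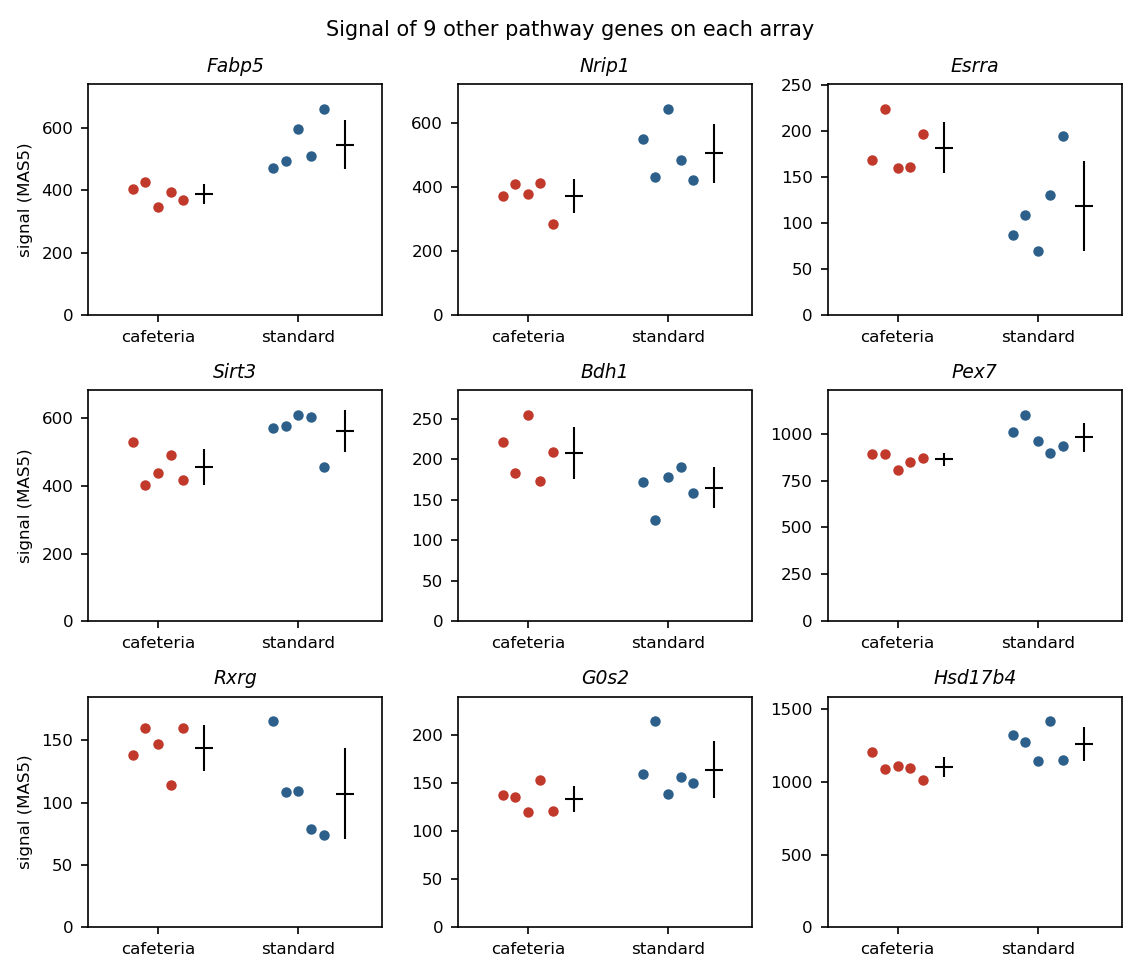
Signal (vertical axis, linear MAS5 units, starting at 0) of the 9 other pathway genes with an unadjusted p under 0.05, in order of p, on each array; cafeteria arrays are left in red, standard arrays right in blue, black bars the mean and SD (n = 5). Fabp5, Nrip1 and Pex7 are lower in the cafeteria group without overlap, and Esrra, Bdh1 and Rxrg are higher with overlap.

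Median signals ran from 154.8 to 173 on cafeteria and from 151 to 172 on standard arrays, and r between arrays lay between 0.959 and 0.973. The GAPDH control probesets give a 3 prime over 5 prime ratio, which rises with RNA degradation. It averaged 1.01 in the cafeteria and 1.16 in the standard group (log2 difference −0.21, exact two-sided permutation p = 0.0238, adjusted 0.0476 over 2 ratios), and that of beta-actin 2.65 in the cafeteria and 2.81 in the standard group (exact permutation p = 0.405). Since the GAPDH ratio differed between diets, its part and that of diet cannot be fully told apart in a fit that holds both. When the ratio entered the fit, 5 of 32 genes had an unadjusted p under 0.05, against 8.83% of all genes in that fit. The 5 were Acsl5, Acadvl, Crat (0.64), Cd36 (−0.53) and Etfa (−0.34). Slc22a5 was no longer among them. Of 12 acinar markers 10 were lower in cafeteria islets (median log2 difference −0.43), while 5285 of all 10301 genes tested were lower. The summed signals were 4298 to 22060 on cafeteria and 9516 to 22318 on standard arrays. The largest differences were those of Pla2g1b (−1.23), Amy2a3 (−1.17) and Cela1 (−0.78), with limma adjusted p-values of 0.401, 0.418 and 0.412. Cpb1 (0.15) and Pnlip (0.043) were higher. The part of acinar cells in the results was not tested.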

How the data were processed

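RNA of 10 islet samples, which the labels call independent, was measured on 1-colour Affymetrix GeneChip Rat Genome 230 2.0 arrays. The deposited values are linear intensity values summarised with MAS5, per the submitters' processing notes (version not given in the sources used here). The mean after trimming 2% at each end was 499.9 to 500.0 on every array, so the authors had scaled them alike. Detection calls were not used here, and the number of arrays limits the precision.

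Symbols came from the platform annotation: 20826 of 31042 non-control probesets had 1 symbol, 436 several and 9780 none. All 36 measured genes of the list matched RefSeq's GRCr8 table. Values were taken as log2(value + 14.2), the 10th percentile, so fold changes understate those of dim genes. Probesets with a mean above the 40th percentile were tested (18625) with limma 3.58.1 in R 4.3.3, cafeteria minus standard, Benjamini-Hochberg over all of them, threshold 0.05. The fit had 8 residual and 3.11 prior degrees of freedom. The fit was tested on simulated data.

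Correlations used 100000 permutations. Per-array values were printed for listed genes with an unadjusted p under 0.05 and for 12 set by role, and for Cpt1b after its values were seen; other pathway genes are named at an unadjusted p under 0.05, plus others by role, some of which are not reported here. A gene is read from its brightest probeset. The genes, lists and rules were chosen with earlier results of these data known. Alternatives were other pseudocounts, filters, normalizations, variance models, array weights, a replicate block, the GAPDH covariate, other probeset choices and leaving out each array.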

Additional observations from a re-analysis of the deposited data

Results flagged for a closer look

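Of 90 sets of 5 arrays (36 listed and 9 other genes, both diets), 13 had a highest or lowest array past Dixon's critical value, against 4.5 expected, since chance marks about 1 set in 20. The 9 other genes were chosen by their unadjusted p, which depends on the spread within groups, so the comparison with 4.5 is only rough. Cafeteria replicate 5 accounted for 5 of the 13. It was lowest for Cd36 at a signal of 268 (others 428 to 504), Acsl1 at 763 (others 942 to 995), Acadm at 1032 (others 1217 to 1254) and Nrip1 at 286 (others 372 to 414), and highest for Acsl5 at 2283 (others 1654 to 1805). In cafeteria replicate 3 Acsl6 was lowest at 165 (others 325 to 399).

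Among standard arrays, replicate 3 was lowest for Cpt2 at 1114 (others 1278 to 1349.7) and Acadl at 898 (others 1028 to 1069.7). Replicate 2 was highest for Etfa at 2021 (others 1521 to 1606) and lowest for Acox3 at 38.0 (others 72.1 to 87.7). Replicate 5 was highest for Ppara at 9.66 (others 2.92 to 4.51), where signals are near the bottom of the range, and for Ucp2 at 2911 (others 2155 to 2349), and lowest for Sirt3 at 455 (others 569 to 607).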

How the results depend on the processing

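No listed gene and no other pathway gene had an adjusted p under 0.05 in any of the 22 alternatives, which include 10 with an array left out. Of all probesets, 0 passed, except that 1 did without standard replicate 2 (range 0 to 1 over left-out arrays). The count of listed genes at an unadjusted p under 0.05 was 3 of 32. With the GAPDH ratio as a covariate it was 5, against 8.83% of all genes. Over left-out arrays it ran from 3 to 5, against 8.11% to 10.6% of all genes. It was 5 without standard replicate 3 (against 8.29% of all genes), where Cpt1b (0.36) and Crat (0.42) joined. With the replicate number as a block it was 3, against 11.3% of all genes. The replicate numbers were not taken as pairing, since not every r between deviations of same-numbered arrays was over 0.1: r ran from −0.0017 to 0.30, with 3 of 5 over 0.1 and those 3 cafeteria arrays correlating best with their own number, a hint from the data. Among other pathway genes 9 of 60 became 5 of 47 with the filter at the 60th percentile, against 12.7% of all genes. With the replicate block the count was 7, against 11.3% of all genes. Over left-out arrays it was 5 to 9, against 8.11% to 10.6% of all genes. It was 5 without cafeteria replicate 3 or 5 or standard replicate 2, against 10.6%, 8.11% and 10.3% of all genes. The median of the 2 PPAR regulators tested, 0.082, was −0.0016 when each gene's probesets were averaged. The differences of Acsl5 (0.22 to 0.42), Acadvl (0.23 to 0.32) and Slc22a5 (−0.39 to −0.26) kept their direction in all settings, with an unadjusted p of up to 0.0508 for Acsl5. The causes of these shifts were not tested. Without the filter 3 of 36 listed genes had an unadjusted p under 0.05, against 7.79% of all genes. They were again Acsl5, Acadvl and Slc22a5. For Ppara, Pparg, Acox3 and Ehhadh detection is unknown, which limits any comparison.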
